A study of Mus musculus with 2 samples.

Results

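The genes described here are 31 members of the PI3K, AKT and mTOR signalling pathway. They were taken by gene symbol from the 33696 genes counted in each library, and each symbol was found once. They comprise catalytic and regulatory subunits of class I phosphoinositide 3-kinase (PI3K), the kinases PDK1 and AKT, the TSC proteins with RHEB, the mTOR complexes, the S6 kinases and 4E-binding proteins, the GSK3 kinases, the FOXO transcription factors, and inhibitors of mTOR complex 1. Expression was read in 2 droplet libraries of brain tissue from Shank3-/- mice. The gene Shank3 encodes SHANK3, a scaffold protein of excitatory synapses. The library labelled fluconazole came from Shank3-/- mice given that azole antifungal by mouth in drinking water for 2 weeks. The library labelled MOCK came from Shank3-/- mice given vehicle and is called the vehicle library. The study's title names activation of the IGF1 receptor, which signals through this pathway, so the comparison asks how transcripts of the pathway stood in each cell class of the fluconazole library against the vehicle library.

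Receptors of insulin and IGF1 recruit PI3K through its regulatory subunits, and its catalytic subunits then make the membrane lipid PIP3. PIP3 brings PDK1 and AKT to the membrane, and active AKT restrains the TSC complex, GSK3 and the FOXO factors. With TSC restrained, the small GTPase RHEB activates mTOR complex 1, which drives protein synthesis through the S6 kinases and the 4E-binding proteins. In neurons the pathway governs growth and synaptic protein synthesis, in microglia it serves growth factor and immune receptors, and in endothelium FOXO1 and PI3K shape vessel growth. Most of this control acts through phosphorylation and lipid, which transcript counts do not show.

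Each treatment had 1 library, and the number of mice behind it is not given in the sources used here. No test between treatments was therefore possible, and no p-value is given. Levels are in CPM: the unique molecular identifiers (UMIs) of a gene, added up over a class's barcodes in 1 library and scaled to the class total. Ratios are log2 of fluconazole over vehicle CPM. All intervals are 95% intervals that cover counting error only, so they leave out differences between mice, dissections, libraries and barcodes. A gene was compared in a class when it had at least 50 UMIs over both libraries, and a pair of gene and class was counted as higher or lower when the CPM differed 1.5-fold or more.

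After filtering, 10610 fluconazole barcodes with 68918276 UMIs and 12892 vehicle barcodes with 67877915 UMIs were kept, with medians of 5258 and 4327 UMIs per barcode. The design text speaks of cells and nuclei of prefrontal cortex, the extraction text of nuclei only and the tissue label of brain, so the droplets are called barcodes. Clusters were named from marker genes and gave 13 classes, and a class name here means barcodes that are like that type by its markers. The largest were endothelial cells (2733 fluconazole and 2828 vehicle barcodes, with Cldn5 and Flt1 among the markers), microglia (2411 and 3156, P2ry12 and Tmem119) and glutamatergic neurons (1798 and 2209, Slc17a7 and Neurod6). Striatal spiny neurons (201 and 312, Drd2 and Rgs9) and neuroblasts (243 and 516, Dlx1 and Sox11) are types found outside the prefrontal cortex. The barcodes named blood leukocytes (97 and 243) differed in kind between the libraries: their own 10 markers summed to 4541 CPM in the fluconazole library and 24603 CPM in the vehicle library, with 5 higher and 5 lower and a single marker at 11390 CPM in the vehicle library, and 10 of 10 endothelial markers were lower in the fluconazole library, with Kdr at 0 there. Results from that class are given apart. The libraries shared 31 kept barcode sequences. Shank3 had 53.6 CPM over all kept fluconazole barcodes and 48.7 CPM over vehicle barcodes; these are 3′ reads and the sources used here do not give the deleted part, so they do not check the genotype.

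The summed level of the 31 genes was close to equal in both libraries in each of the 3 largest classes. In glutamatergic neurons it was 1597 CPM in the fluconazole library and 1582 CPM in the vehicle library, a log2 ratio of 0.01 (interval -0.01 to 0.04). In endothelial cells it was 2334 and 2307 CPM in the fluconazole and vehicle libraries, a ratio of 0.02 (-0.01 to 0.04), and in microglia 2798 and 2757 CPM, a ratio of 0.02 (0.00 to 0.04). Over all 13 classes the summed ratio ran from -0.02 in fibroblasts to 0.15 in blood leukocytes. Striatal spiny neurons had 2191 CPM in the fluconazole library and 2018 CPM in the vehicle library (0.12, 0.05 to 0.19), and mural cells, the pericytes and smooth muscle cells of vessel walls, had 2449 and 2304 CPM (0.09, 0.02 to 0.15). In bulk sums of this kind, more cells that use a gene and more RNA of it per cell cannot be told apart.

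Of 403 possible pairs of gene and class, 311 had enough UMIs. In 170 of them the fluconazole CPM was above the vehicle CPM and in 141 below it. By class, the median ratio lay between -0.03 and 0.14 for the members and between -0.04 and 0.04 for all genes. Whether the signs of the members lean further than those of other genes was not tested. Of the pairs, 10 of 311 (3.22%) were at least 1.5-fold higher in the fluconazole library, against 3.14% of the 116559 gene and class pairs over all genes. Another 8 of 311 (2.57%) were at least 1.5-fold lower, against 4.58% over all genes. Both shares of the members were thus near or under the background. Without blood leukocytes the counts were 7 higher (2.4%) and 6 lower (2.05%) of 292 pairs. The background shares above include blood leukocytes, where 8.53% of genes were higher and 9.79% lower. They are therefore not the background of this smaller set. By class, 1 of 29 members was higher and 2 were lower in neuroblasts (background 2.54% and 4.23%), 2 of 25 were lower in astrocytes (5.42%) and 1 of 28 was lower in oligodendrocytes (2.28%), and no member was higher in the last 2 classes (background 1.95% and 3.11% higher). In striatal spiny neurons and mural cells 2 members each were higher and none lower (background 7.6% and 4.15% lower), and in microglia 1 was higher and none lower (background 3.16% lower). No member reached 1.5-fold either way in 5 classes: GABAergic neurons (25 compared; background 2.96% higher and 5.3% lower), oligodendrocyte precursors (16; 5.78% and 5.04%), border macrophages (17; 5.09% and 5.05%), endothelial cells (30; 2.08% and 2.5%) and fibroblasts (14; 6.45% and 8.44%). The 18 pairs involved 13 of the 31 genes, and 18 genes stayed within 1.5-fold in every class where they were compared.

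**Figure D1:**
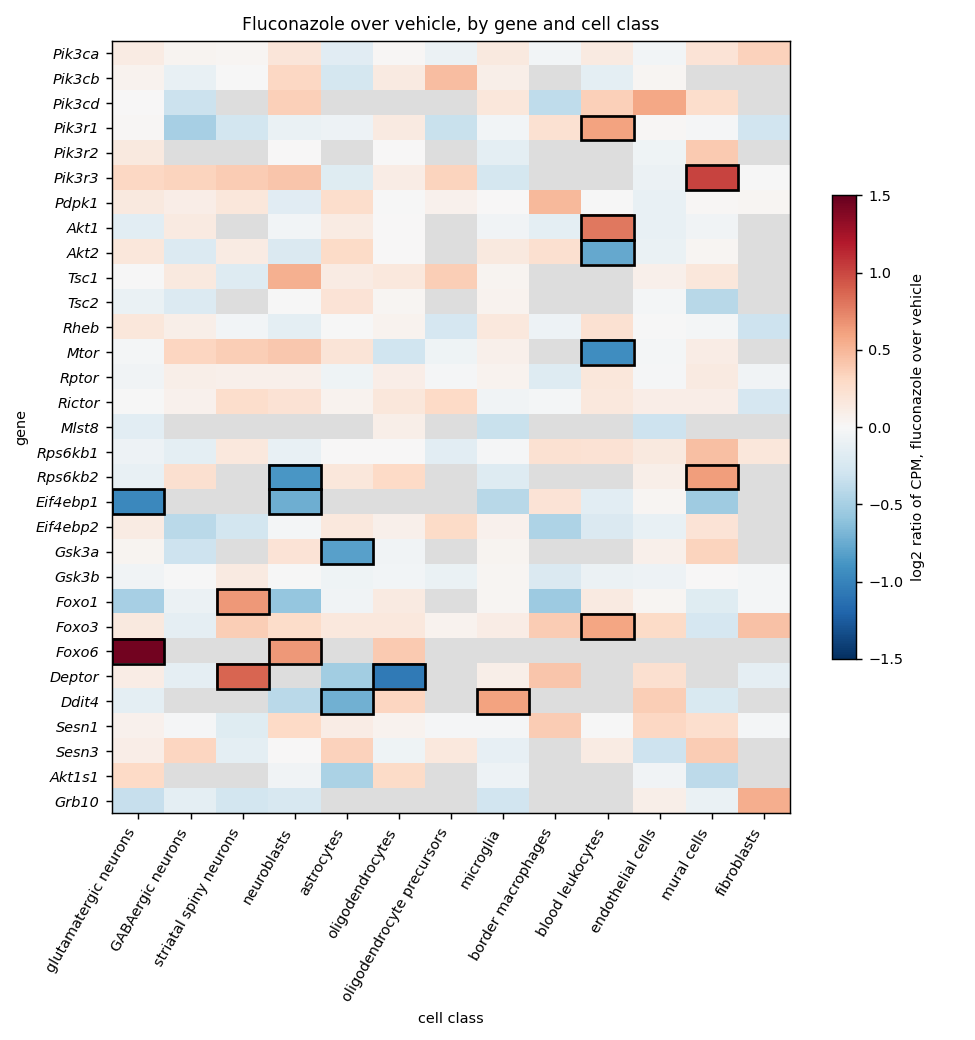
Log2 ratio of fluconazole over vehicle CPM for each of the 31 genes (rows, by role group) in each of 13 cell classes (columns). Grey cells had under 50 UMIs over both libraries and black frames mark the 18 pairs at least 1.5-fold apart; most of the 311 coloured cells are pale, that is, close to a ratio of 0.

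The genes differed far more between cell classes than between the libraries. For 22 of 31 genes the class with the highest CPM was the same in both libraries. A group of 4 genes stood at least 2-fold above their next class in both: Pik3r1 in microglia, Pik3r3 in oligodendrocyte precursors, Akt2 in astrocytes and Foxo6 in neuroblasts. UMI counts are not corrected for transcript length, so levels are compared below between classes for 1 gene and not between genes. The classes also differed in the kind of RNA they held. Ribosomal protein genes made up 0.42% of UMIs in fluconazole glutamatergic neurons and 7.65% in fluconazole endothelial cells. Mitochondrially encoded genes made up 0.25% and 2.61%, and the nuclear RNA Malat1 4.66% and 1.88%. The part of nuclei against whole cells in the class levels was not tested.

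**Figure D2:**
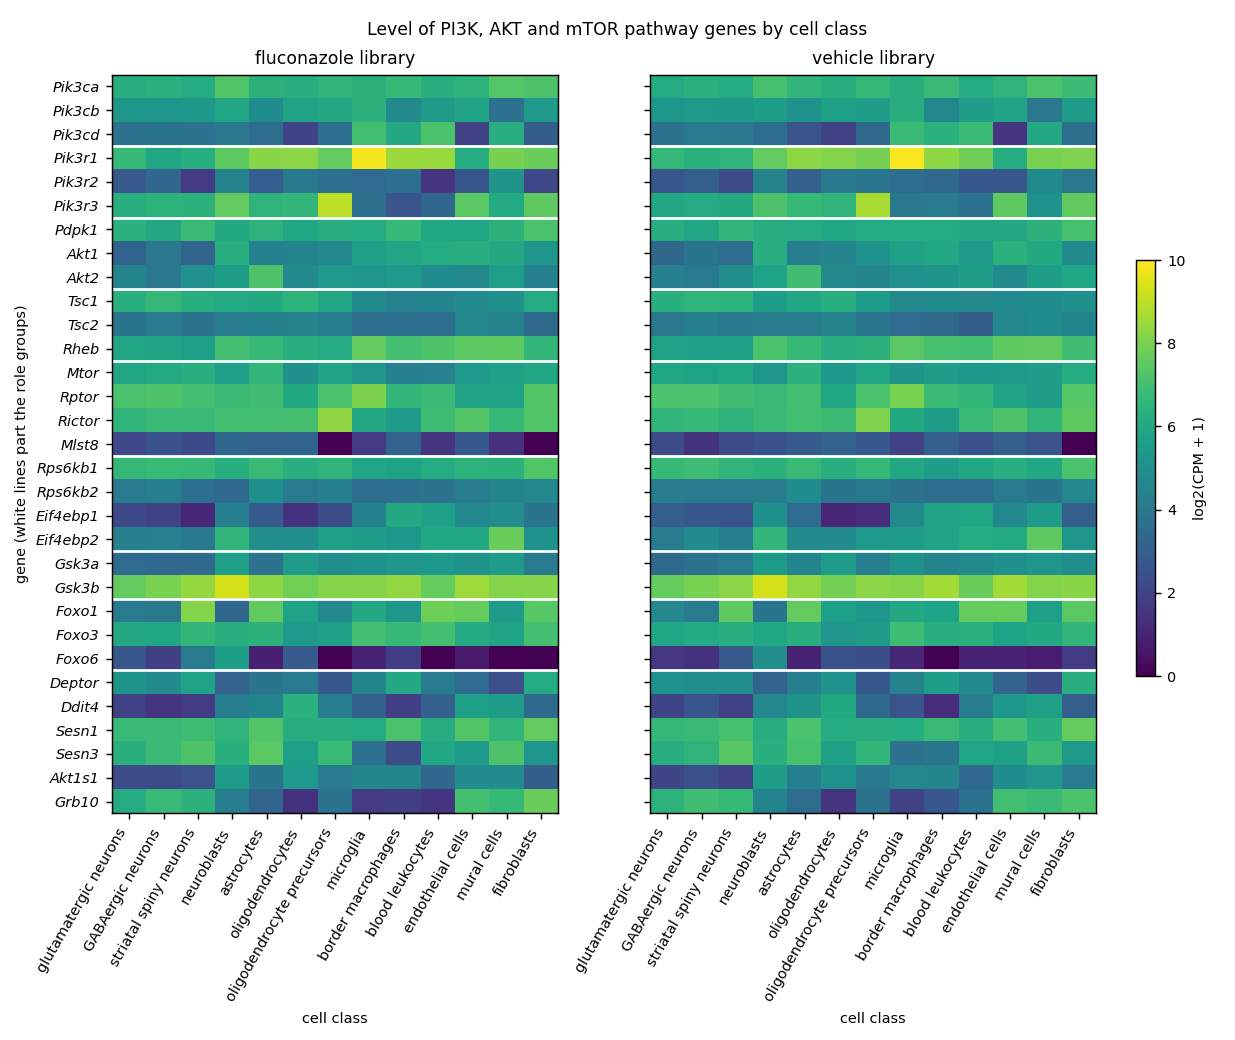
Level of each gene as log2(CPM + 1) in 13 cell classes, in the fluconazole library (left) and the vehicle library (right). The class pattern of most genes is alike in both panels, with Pik3r1 highest in microglia (936 and 960 CPM in the fluconazole and vehicle libraries) and Pik3r3 highest in oligodendrocyte precursors (519 and 412 CPM).

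Among the catalytic subunits of PI3K, no pair of gene and class reached 1.5-fold in 31 compared pairs, of which 21 lay above 0 and 10 below. Over all genes and classes, 3.14% of pairs were higher and 4.58% lower, so few such pairs would be looked for among 31. Pik3ca encodes p110 alpha, the subunit that serves insulin and growth factor receptors, and its highest level was in mural cells, with 164 CPM in the fluconazole library and 143 CPM in the vehicle library. Its ratios over 13 classes lay between -0.17 and 0.35. Pik3cb, for p110 beta, was highest in microglia, with 84.3 CPM in the fluconazole library and 79.1 CPM in the vehicle library. Pik3cd encodes p110 delta, the subunit typical of leukocytes, and was lowest in endothelial cells of both libraries. In the fluconazole library its highest class was blood leukocytes (142 CPM), the class given apart, 51.3 times above the lowest. In the vehicle library Pik3cd was highest in microglia, 60.2 times above the lowest class, with blood leukocytes also at 111 CPM. It had 125 CPM (interval 120 to 131) in fluconazole microglia and 111 CPM (106 to 117) in vehicle microglia, against 2.77 and 1.85 CPM in endothelial cells of the fluconazole and vehicle libraries. Its ratio in microglia was 0.17 (0.07 to 0.27). Mural cells also held it, with 78.0 CPM in the fluconazole library and 65.0 CPM in the vehicle library; in those barcodes the 10 microglial markers summed to 345 CPM in the fluconazole library and 849 CPM in the vehicle library, 9 of 10 lower and none at 0. Their part in the Pik3cd value was not tested.

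The regulatory subunits hold the catalytic subunits at receptors, and 2 of their 30 compared pairs were at least 1.5-fold higher in the fluconazole library, against 3.14% over all genes and classes. One of the 2 was Pik3r1 in blood leukocytes, which had the opposite sign under a stricter barcode filter (-0.58). Pik3r1, which encodes p85 alpha and its shorter forms, was the gene most concentrated in microglia. It had 936 CPM (921 to 952) in fluconazole microglia and 960 CPM (944 to 976) in vehicle microglia, 2.57 and 3.07 times the next class. The ratio in microglia was -0.04 (-0.07 to -0.00). Microglia fell into 2 clusters, and Pik3r1 was higher in the one led by the cytokine genes Ccl4, Ccl3, Il1a and Tnf, with 1146 CPM in the fluconazole library and 1187 CPM in the vehicle library. In the other it had 722 and 735 CPM. The gene supplied 33.5% of the UMIs of all 31 genes in fluconazole microglia and 34.8% in vehicle microglia, so the summed level of that class rests largely on it. Elsewhere Pik3r1 was lower in GABAergic neurons, with 58.8 CPM in the fluconazole library and 83.0 CPM in the vehicle library (-0.50, -0.82 to -0.18), which is short of 1.5-fold.

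Pik3r3, which encodes the regulatory subunit p55 gamma, showed the clearest difference of the group. In mural cells it had 69.1 CPM (57.5 to 82.4) in the fluconazole library and 34.3 CPM (25.3 to 45.3) in the vehicle library, from 125 and 49 UMIs, a log2 ratio of 1.01 (0.53 to 1.52). The background in mural cells was 3.26% of genes at least 1.5-fold higher, and 2 of 27 compared members were. Barcodes named mural formed 2 clusters. A further cluster with Rgs5 and Atp13a5 among its leading genes (166 fluconazole and 144 vehicle barcodes) scored best for mural cells. It stayed unnamed because endothelial markers were its second class, so it is not counted here. In the one led by Kcnj8 and Abcc9, genes of pericytes, Pik3r3 had 90.6 CPM in the fluconazole library and 33.0 CPM in the vehicle library (1.46, 0.80 to 2.16). In the one led by Tagln and Acta2, genes of smooth muscle, it had 41.7 and 35.6 CPM (0.22, -0.58 to 1.05). Of the 2 clusters, only the pericyte-like one was past 1.5-fold. Their intervals overlap, and the difference between the clusters was not tested.

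At an equal depth of 1500 UMIs per barcode, 9.53% (6.99 to 12.6) of 451 fluconazole mural barcodes and 4.37% (2.61 to 6.82) of 412 vehicle mural barcodes held a Pik3r3 UMI; before thinning the shares were 18.0% and 8.37%. In microglia, one of the classes where Pik3r3 is scarce, the thinned shares were 1.69% and 2.02% in the fluconazole and vehicle libraries. Other classes also hold the gene. Beside the mural result, the 9 astrocyte markers summed to 3409 CPM in fluconazole mural barcodes and 2630 CPM in vehicle mural barcodes with 6 of 9 lower, Gfap at 0 in the fluconazole library and none at 0 in the vehicle library. The 8 markers of oligodendrocyte precursors summed to 509 and 489 CPM, with Neu4 and C1ql1 at 0 in the fluconazole library and Olig2 and Neu4 at 0 in the vehicle library. Red blood cell genes summed to 164 CPM in fluconazole and 1915 CPM in vehicle mural barcodes, 5 of 5 lower. The part of these in the result was not tested.

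In oligodendrocyte precursors, where its level was highest, Pik3r3 had 519 CPM (467 to 576) in the fluconazole library and 412 CPM (366 to 462) in the vehicle library (0.34, 0.11 to 0.56), 2.66 and 2.22 times the next class. Its CPM was also above the vehicle value in all 4 neuronal classes. The ratios were 0.31 (0.20 to 0.41) in glutamatergic neurons, 0.33 in GABAergic neurons, 0.38 in striatal spiny neurons and 0.42 in neuroblasts, none reaching 1.5-fold. In endothelial cells, by contrast, it had 173 and 184 CPM in the fluconazole and vehicle libraries (-0.08, -0.17 to 0.00). Pik3r2, for p85 beta, was highest in mural cells, with 34.8 CPM in the fluconazole library and 26.6 CPM in the vehicle library, and no ratio of it passed 0.39. The most upstream Pik3r3 promoter in RefSeq lies on build GRCm38.p6 at chr4:116221166-116221415, plus strand, and is shown because this gene had the largest mural difference. The capitals mark its GC box, GGGCGG read on the other strand, the only one of the motifs searched that the window holds:
Pik3r3: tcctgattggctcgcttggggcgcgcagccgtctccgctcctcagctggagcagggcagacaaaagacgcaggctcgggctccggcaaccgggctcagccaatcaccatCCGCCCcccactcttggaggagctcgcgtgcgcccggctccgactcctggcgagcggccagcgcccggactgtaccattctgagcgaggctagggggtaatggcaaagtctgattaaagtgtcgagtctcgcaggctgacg

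PDK1 and the AKT kinases carry the PI3K signal. Pdpk1, which encodes PDK1, was even across classes, highest in fibroblasts with 137 CPM in the fluconazole library and 135 CPM in the vehicle library, and its 13 ratios lay between -0.17 and 0.49. Akt1 was highest in endothelial cells and neuroblasts. It had 76.3 CPM (71.4 to 81.4) in fluconazole and 82.5 CPM (77.2 to 88.1) in vehicle endothelial cells, and 75.8 and 78.2 CPM in neuroblasts of the fluconazole and vehicle libraries, so these neighbours overlapped within their intervals in each library. In glutamatergic neurons it had 8.46 CPM in the fluconazole library and 9.41 CPM in the vehicle library.

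Akt2, the AKT form most tied to insulin action, was highest in astrocytes, at 147 CPM (132 to 163) in the fluconazole library and 121 CPM (106 to 136) in the vehicle library. That was at least 2-fold above the next class in both libraries. The ratio in astrocytes was 0.28 (0.05 to 0.52), under 1.5-fold. At 1500 UMIs per barcode, 17.9% of fluconazole astrocytes and 13.5% of vehicle astrocytes held an Akt2 UMI (31.4% and 22.6% before thinning), against 3.71% and 3.69% of endothelial cells, one of the classes where it is low. Of 34 compared pairs of Pdpk1, Akt1 and Akt2, 1 was at least 1.5-fold higher and 1 lower, both in blood leukocytes. Over all genes and classes the shares were 3.14% higher and 4.58% lower.

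TSC1 and TSC2 form the complex that switches RHEB off, and RHEB turns mTOR complex 1 on. None of their 31 compared pairs reached 1.5-fold, against 3.14% higher and 4.58% lower over all genes and classes. Of the 31, 16 were above and 15 below 0. Rheb was highest in 3 classes with overlapping intervals in the fluconazole library: 193 CPM (186 to 200) in microglia, 184 CPM (164 to 204) in mural cells and 180 CPM (172 to 188) in endothelial cells. In the vehicle library these classes had 173 CPM (167 to 180), 187 CPM (165 to 210) and 181 CPM (173 to 190). In microglia the ratio was 0.15 (0.08 to 0.23). Tsc1 came nearest to a difference in neuroblasts, with 69.1 CPM in the fluconazole library and 47.8 CPM in the vehicle library (0.53, 0.17 to 0.89). Tsc2 overlaps the gene Pkd1 on the opposite strand, and use of strand in the counting is not given in the sources used here; its ratios lay between -0.41 and 0.20.

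In the mTOR complexes, Mtor is the kinase, Rptor and Rictor encode the subunits that define complexes 1 and 2, and Mlst8 encodes a subunit of both. Of 41 compared pairs, 1 reached 1.5-fold, Mtor in blood leukocytes, where it was lower. In that class 9.79% of all genes were lower. Over all genes and classes, 3.14% of pairs were higher and 4.58% lower. Rptor was highest in microglia, with 260 CPM (252 to 268) in the fluconazole library and 251 CPM (243 to 259) in the vehicle library, and its 13 ratios stayed between -0.19 and 0.17. Rictor was highest in oligodendrocyte precursors, with 325 CPM (284 to 370) in the fluconazole library and 264 CPM (228 to 305) in the vehicle library (0.30, 0.01 to 0.59). Microglia therefore stood at the top for the complex 1 subunit, and oligodendrocyte precursors for the complex 2 subunit. Mtor was highest in astrocytes, with 95.5 and 83.8 CPM in the fluconazole and vehicle libraries. It was above the vehicle CPM in GABAergic neurons (0.33, -0.02 to 0.67), striatal spiny neurons (0.37, -0.02 to 0.75) and neuroblasts (0.40, -0.03 to 0.83), with intervals that include 0. Mlst8 was low in every class, at most 9.10 CPM in the fluconazole library (neuroblasts) and 7.80 CPM in the vehicle library (oligodendrocytes). It could be compared in 4 classes and had 3.41 CPM in fluconazole and 3.81 CPM in vehicle glutamatergic neurons. It had no UMI in fibroblasts of either library, where 1 UMI equals 3.35 CPM in the fluconazole library and 2.41 CPM in the vehicle library.

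The S6 kinases and 4E-binding proteins are the outputs of mTOR complex 1 on translation, and 4 of their 40 compared pairs were past 1.5-fold, 1 higher and 3 lower, against 3.14% higher and 4.58% lower over all genes and classes. Eif4ebp1 encodes 4E-BP1, which blocks the cap-binding factor eIF4E until mTOR phosphorylates it. In glutamatergic neurons it had 3.65 CPM (2.88 to 4.55) in the fluconazole library and 7.13 CPM (6.01 to 8.40) in the vehicle library, from 78 and 144 UMIs, a ratio of -0.97 (-1.38 to -0.56). The background there was 4.06% of genes at least 1.5-fold lower, and 1 of 31 members was. All 5 glutamatergic clusters had a ratio below 0, from -2.76 in a cluster with Hs3st4 and Vwc2l among its leading genes to -0.08 in one with Shoc1 and Tcerg1l among them. The lowest value rests on 3 fluconazole and 14 vehicle UMIs. With every barcode thinned to 1500 UMIs, the class ratio was -0.35, from 12 fluconazole and 19 vehicle UMIs, which is no longer 1.5-fold.

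Neuroblasts also had less Eif4ebp1, with 18.8 CPM in the fluconazole library and 31.3 CPM in the vehicle library (-0.74, -1.37 to -0.14), against a background of 4.23% lower. Of these UMIs, 25.8% in the fluconazole library and 19.2% in the vehicle library came from 1 barcode; without the top barcode of each library the ratio was -0.86. With barcodes thinned to 1500 UMIs it was -0.14, short of 1.5-fold. Microglia had 20.1 CPM in the fluconazole library and 26.9 CPM in the vehicle library (-0.42, -0.64 to -0.20), short of 1.5-fold. Endothelial cells were even, at 24.7 and 24.2 CPM in the fluconazole and vehicle libraries (0.03, -0.22 to 0.27). The gene was highest in border macrophages (65.2 CPM in the fluconazole library and 56.5 CPM in the vehicle library) and blood leukocytes (52.4 and 58.3 CPM), with overlapping intervals.

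Other transcripts moved in the same barcodes as Eif4ebp1. Genes of cytosolic ribosomal proteins, as a sum, had a ratio of -0.39 in glutamatergic neurons and -0.07 in neuroblasts. In glutamatergic barcodes the 10 blood leukocyte markers summed to 23.9 CPM in the fluconazole library and 60.7 CPM in the vehicle library, 9 of 10 lower, with Cd3e at 0 in the fluconazole library. The 10 microglial markers summed to 620 and 766 CPM, 10 of 10 lower and none at 0. In neuroblasts the microglial markers summed to 670 CPM in the fluconazole library and 851 CPM in the vehicle library, 10 of 10 lower. Their part in the Eif4ebp1 values was not tested.

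Rps6kb2, which encodes the second S6 kinase, went opposite ways in 2 classes. In neuroblasts it had 9.70 CPM (5.55 to 15.8) in the fluconazole library and 17.7 CPM (13.4 to 23.0) in the vehicle library (-0.87, -1.77 to -0.05; -0.33 when thinned to 1500 UMIs), from 16 and 56 UMIs. In mural cells it had 21.6 CPM (15.3 to 29.5) in the fluconazole library and 14.0 CPM (8.54 to 21.6) in the vehicle library, and its interval included 0 (0.63, -0.19 to 1.48); with called doublets kept the ratio was 0.30. The gene overlaps Coro1b and Ptprcap on the opposite strand. Rps6kb1, for S6K1, stayed between -0.16 and 0.45 in all 13 classes. Eif4ebp2, for 4E-BP2, the form most abundant in brain protein, was highest in mural cells. They had 212 CPM (191 to 234) in the fluconazole library and 183 CPM (162 to 207) in the vehicle library, 2.21 and 1.88 times the next class, with a ratio of 0.21 (-0.02 to 0.44).

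**Figure D3:**
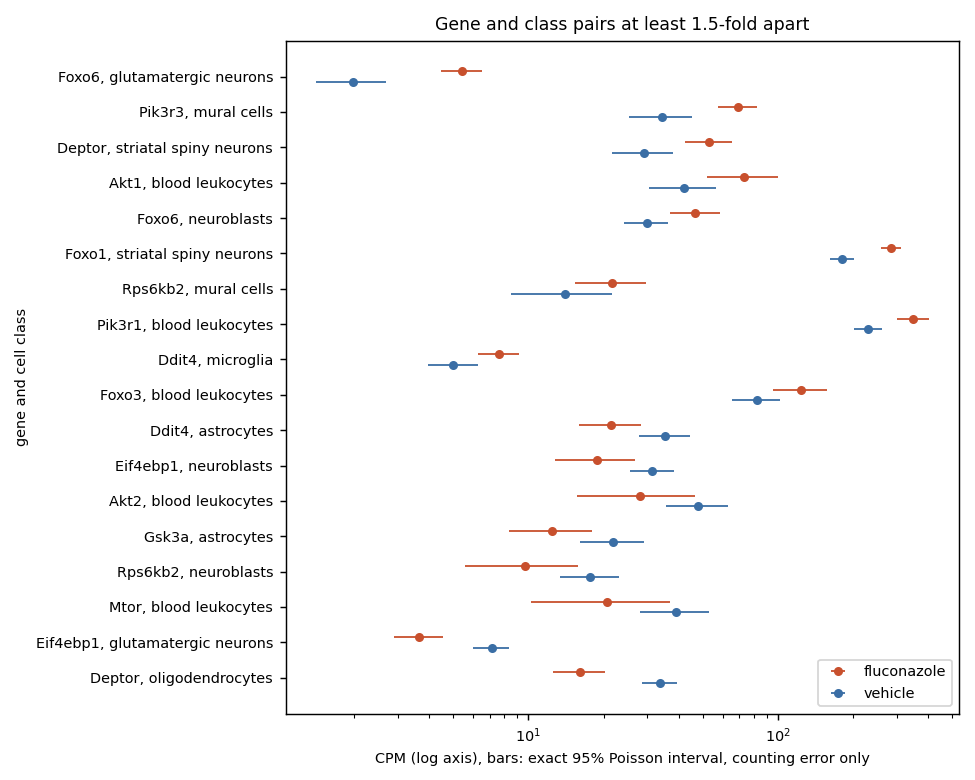
CPM (log axis) with exact 95% Poisson intervals for the 18 pairs of gene and class at least 1.5-fold apart, fluconazole above vehicle within each row. The widest separation is Foxo6 in glutamatergic neurons (5.42 CPM in the fluconazole library and 1.98 CPM in the vehicle library), and the intervals overlap for pairs with few UMIs such as Rps6kb2 in mural cells.

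GSK3 kinases are switched off by AKT. Gsk3b was highest in neuroblasts, with 659 CPM (621 to 700) in the fluconazole library and 662 CPM (634 to 691) in the vehicle library, 1.80 and 1.71 times the next class. Its 13 ratios ran from -0.21 to 0.13, with 10 below 0. In endothelial cells it had 366 CPM in the fluconazole library and 387 CPM in the vehicle library (-0.08, -0.14 to -0.02). Gsk3a passed 1.5-fold in astrocytes, with 12.5 CPM (8.36 to 17.9) in the fluconazole library and 21.9 CPM (16.1 to 29.1) in the vehicle library (-0.81, -1.53 to -0.11), from 29 and 47 UMIs, against a background of 5.42% lower. It was short of 1.5-fold with barcodes thinned to 1500 UMIs (-0.38) and under a stricter barcode filter (-0.47). In the same barcodes the ribosomal protein genes had a summed ratio of -0.40, and the 9 oligodendrocyte markers summed to 204 CPM in the fluconazole library and 421 CPM in the vehicle library, 7 of 9 lower and none at 0. Their part was not tested.

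The FOXO factors are transcription factors, of which FOXO1 and FOXO3 leave the nucleus when AKT phosphorylates them. The FOXO genes held 4 higher pairs of 28 compared and none lower, against 3.14% higher and 4.58% lower over all genes and classes. Of the 28 ratios, 19 were above 0. One of the 4, Foxo3, was in blood leukocytes, where 8.53% of all genes were higher. Foxo6, the form known for its place in hippocampal and cortical neurons, gave the largest ratio of all members. In glutamatergic neurons it had 5.42 CPM (4.48 to 6.50) in the fluconazole library and 1.98 CPM (1.42 to 2.70) in the vehicle library, from 116 and 40 UMIs (1.45, 0.92 to 2.01); 1.97% of genes in that class were at least 1.5-fold higher and 1 of 31 members was. The UMIs lay in 106 fluconazole and 39 vehicle barcodes, none with 3 or more. All 5 glutamatergic clusters had a ratio above 0, at 0.59, 1.01, 1.46, 1.63 and 2.39, and the intervals of the 2 lowest include 0 (-1.07 to 2.36 and -0.10 to 2.20).

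At 1500 UMIs per barcode, 1.16% (0.71 to 1.78) of fluconazole and 0.47% (0.22 to 0.86) of vehicle glutamatergic barcodes held a Foxo6 UMI; before thinning the shares were 5.90% and 1.77%. In microglia the thinned shares were 0.08% and 0.16% in the fluconazole and vehicle libraries. Neuroblasts, the class with the highest level, had 46.7 CPM (36.9 to 58.4) in the fluconazole library and 29.8 CPM (24.0 to 36.4) in the vehicle library (0.65, 0.20 to 1.10), against a background of 2.54% higher. Oligodendrocytes had 6.26 and 4.77 CPM in the fluconazole and vehicle libraries (0.39, -0.47 to 1.27). The 3 classes in which Foxo6 could be compared thus all stood above 0. In striatal spiny neurons, with too few UMIs to compare (26 and 11), it had 16.0 CPM in the fluconazole library and 6.24 CPM in the vehicle library. Beside the glutamatergic result, the 8 markers of that class summed to 1769 CPM in the fluconazole library and 1530 CPM in the vehicle library, 8 of 8 higher. The 9 neuroblast markers there summed to 171 CPM in the fluconazole library and 230 CPM in the vehicle library, 9 of 9 lower and none at 0. The 10 GABAergic markers summed to 289 and 432 CPM, 10 of 10 lower and none at 0. The part of these markers in the Foxo6 value was not tested.

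Over the 26 values of 13 classes and 2 libraries, the genes most like Foxo6 among 16384 were Tubb3 (Pearson r 0.86 of log2(CPM + 1)), Ago1 (0.85), Scrt2 (0.83), Ankrd13b (0.81) and Arhgap33 (0.81). Tubb3 encodes a neuronal tubulin and was one of the markers used to name neuroblasts. The points share libraries and depth, and the values are a description.

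Foxo1, a factor of metabolism and vessel growth, was past 1.5-fold in striatal spiny neurons. It had 283 CPM (258 to 310) there in the fluconazole library and 181 CPM (162 to 202) in the vehicle library, from 459 and 319 UMIs (0.65, 0.44 to 0.86; 0.40 with barcodes thinned to 1500 UMIs), against a background of 3.75% higher. In the same class Deptor was higher too, so 2 of 20 members were. In glutamatergic neurons Foxo1 went the other way without reaching 1.5-fold, with 17.0 CPM in the fluconazole library and 23.9 CPM in the vehicle library (-0.50, -0.70 to -0.30). Endothelial cells were level, at 200 CPM (192 to 208) in the fluconazole library and 196 CPM (188 to 205) in the vehicle library. In spiny neuron barcodes the 9 markers of that class summed to 5537 CPM in the fluconazole library and 4398 CPM in the vehicle library, 7 of 9 higher. The 10 microglial markers there summed to 776 and 1198 CPM, 10 of 10 lower and none at 0, and ribosomal protein genes had a ratio of -0.42. Their part in the Foxo1 and Deptor values was not tested.

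Foxo3, a factor of cell stress and survival, was above the vehicle CPM in 11 of 13 classes. In endothelial cells it had 67.6 CPM (63.0 to 72.5) in the fluconazole library and 55.3 CPM (50.9 to 59.9) in the vehicle library (0.29, 0.14 to 0.45). In microglia it had 127 and 118 CPM in the fluconazole and vehicle libraries (0.11, 0.02 to 0.21). Its only pair past 1.5-fold was in blood leukocytes.

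**Figure D4:**
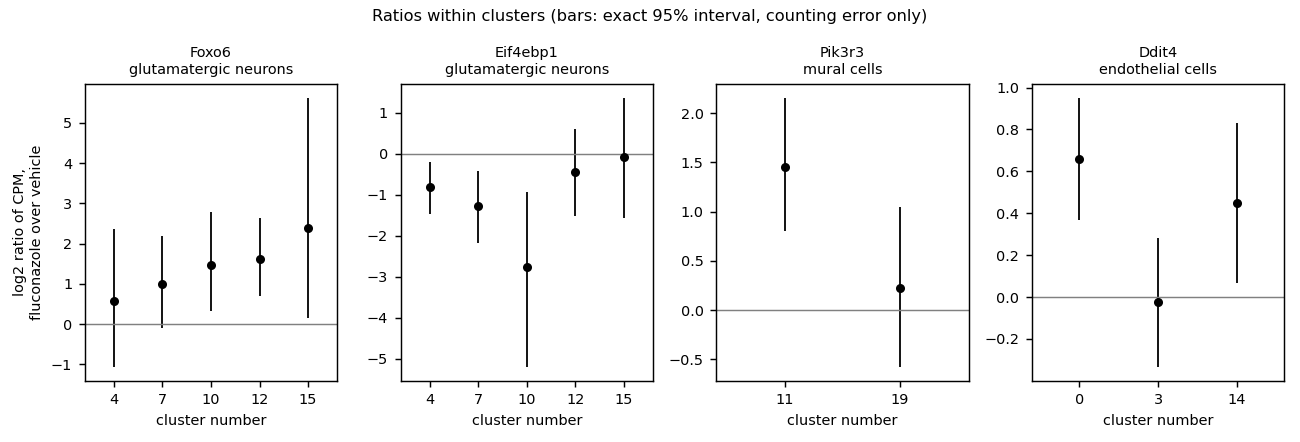
Log2 ratio of fluconazole over vehicle CPM, with exact 95% intervals for counting error, in each cluster of a class for Foxo6 and Eif4ebp1 (5 glutamatergic clusters), Pik3r3 (2 mural clusters) and Ddit4 (3 endothelial clusters); the vertical scales differ between panels. Foxo6 lies above 0 and Eif4ebp1 below 0 in all 5 clusters, and Pik3r3 is apart from 0 in cluster 11 (1.46) and not in cluster 19 (0.22).

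Inhibitors of mTOR complex 1 gave 2 higher and 2 lower pairs of 55, against 3.14% higher and 4.58% lower over all genes and classes. Deptor binds mTOR and inhibits it. In striatal spiny neurons it had 53.0 CPM (42.4 to 65.5) in the fluconazole library and 28.9 CPM (21.5 to 38.0) in the vehicle library (0.87, 0.36 to 1.40), from 86 and 51 UMIs. In oligodendrocytes it had 16.1 CPM (12.6 to 20.3) in the fluconazole library and 33.6 CPM (28.5 to 39.3) in the vehicle library (-1.06, -1.49 to -0.65), from 72 and 155 UMIs, against a background of 2.28% lower. With each barcode thinned to 1500 UMIs the oligodendrocyte ratio was 0.17, from 15 fluconazole and 17 vehicle UMIs. Before thinning, fluconazole barcodes with a Deptor UMI had a median of 11535 UMIs and all fluconazole oligodendrocytes 8914, against 9118.5 and 7320 in the vehicle library. In these barcodes the 10 endothelial markers summed to 208 CPM in the fluconazole library and 296 CPM in the vehicle library, 10 of 10 lower and none at 0. Their part in the Deptor value was not tested.

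Ddit4 encodes REDD1, which activates the TSC complex under hypoxia, energy stress and glucocorticoids, and it reached 1.5-fold in 2 classes, higher in microglia and lower in astrocytes. Oligodendrocytes held the highest level, 83.4 CPM (75.1 to 92.3) in the fluconazole library and 66.8 CPM (59.5 to 74.6) in the vehicle library (0.32, 0.10 to 0.54). Endothelial cells had 50.7 CPM (46.8 to 55.0) in the fluconazole library and 39.4 CPM (35.7 to 43.3) in the vehicle library (0.37, 0.18 to 0.55). Of the 3 endothelial clusters, the one led by Hmcn1 and Car4 had a ratio of 0.66 (0.37 to 0.95), the one led by Lrg1 and Ackr1 0.45 (0.07 to 0.83), and the one led by Bmx and Gkn3 -0.03 (-0.33 to 0.28). The endothelial difference was therefore not shared by the last cluster, and the difference between clusters was not tested.

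Microglia had more Ddit4 past 1.5-fold at a low level, with 7.60 CPM (6.26 to 9.14) in the fluconazole library and 5.01 CPM (3.95 to 6.27) in the vehicle library (0.60, 0.17 to 1.04), against a background of 1.92% higher. Astrocytes went the other way, with 21.5 CPM (16.0 to 28.4) in the fluconazole library and 35.4 CPM (27.9 to 44.3) in the vehicle library (-0.72, -1.26 to -0.18). One vehicle barcode held 15.8% of the vehicle astrocyte UMIs, and without the barcode holding most Ddit4 UMIs in each library the ratio was -0.53, short of 1.5-fold. The astrocyte difference sat in the cluster led by Aldoc and Mt3, at 40.0 and 69.4 CPM in the fluconazole and vehicle libraries (-0.80, -1.40 to -0.21). In astrocyte barcodes the 9 markers of oligodendrocytes, the class highest in Ddit4, summed to 204 CPM in the fluconazole library and 421 CPM in the vehicle library. Of these, 7 of 9 were lower and none was at 0. Red blood cell genes summed to 348 CPM in fluconazole and 966 CPM in vehicle astrocyte barcodes, 4 of 5 lower and none at 0. The part of these genes in the Ddit4 value was not tested.

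Of 11 listed glucocorticoid-induced genes, chosen with earlier results of these data known, 120 pairs of gene and class could be compared. In these 25 (20.8%) were at least 1.5-fold higher and 5 (4.17%) lower in the fluconazole library, against 3.14% and 4.58% over all genes. Since the list was chosen that way, its share is a description. Of the 25, 15 were Zbtb16, Fkbp5 or Sgk1. Blood leukocytes, the class given apart, held 6 of the 25, from 10 compared genes, where 8.53% of all genes were higher. The higher genes were 5 of 11 in oligodendrocytes, 3 of 11 in astrocytes and in endothelial cells and 1 of 10 in microglia, with none lower in these classes. Glutamatergic neurons had none of 10 either way, and GABAergic neurons had none higher and 2 of 9 lower. Zbtb16 had 199 CPM in fluconazole endothelial cells and 49.0 CPM in vehicle endothelial cells (2.02, 1.89 to 2.16), and ratios of 1.77 in oligodendrocytes and 1.44 in astrocytes. Fkbp5, which encodes a cochaperone of the glucocorticoid receptor, had 244 CPM in fluconazole microglia and 155 CPM in vehicle microglia (0.65, 0.58 to 0.73), and ratios of 1.48 in oligodendrocytes, 1.14 in astrocytes and 1.02 in endothelial cells. In oligodendrocytes Sgk1, a kinase related to AKT and switched on by PDK1, had 574 CPM in the fluconazole library and 140 CPM in the vehicle library (2.03, 1.91 to 2.16). Ddit4 in these classes was higher past 1.5-fold in microglia only. In astrocytes Ddit4 stood below the vehicle level while Zbtb16 and Fkbp5 stood above it, and Sgk1 had ratios of -0.12 in microglia and -0.07 in endothelial cells. What links them was not tested.

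**Figure D5:**
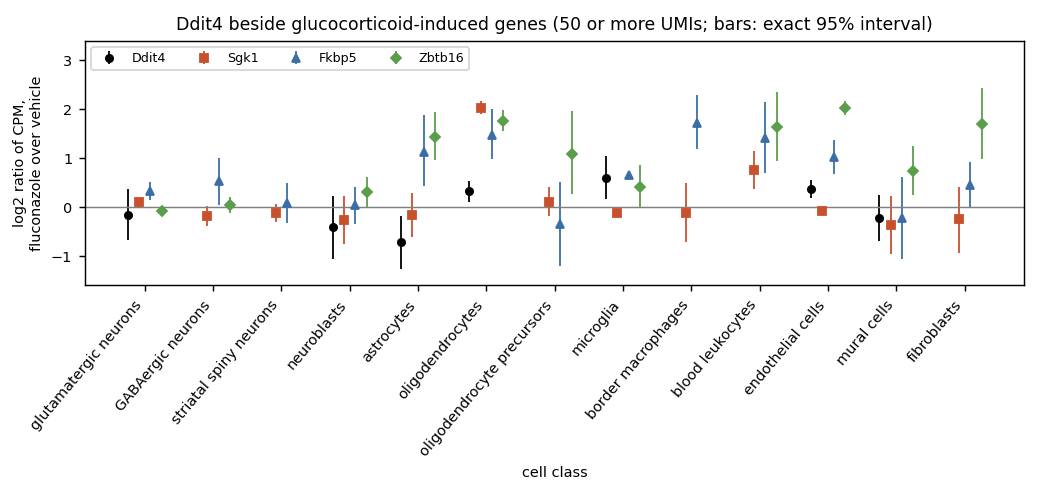
Log2 ratio of fluconazole over vehicle CPM by cell class for Ddit4, Sgk1, Fkbp5 and Zbtb16, where a gene had at least 50 UMIs; bars are exact 95% intervals for counting error. Zbtb16 (2.02) and Fkbp5 (1.02) exceed Ddit4 (0.37) in endothelial cells, and in astrocytes Ddit4 (-0.72) lies below 0 while Zbtb16 (1.44) lies above.

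The Ddit4 promoter in RefSeq is shown because this gene was past 1.5-fold in opposite directions in microglia and astrocytes. It lies on build GRCm38.p6 at chr10:59951771-59952020, minus strand, and capitals mark the GC box GGGCGG and the core of the hypoxia response element, ACGTG:
Ddit4: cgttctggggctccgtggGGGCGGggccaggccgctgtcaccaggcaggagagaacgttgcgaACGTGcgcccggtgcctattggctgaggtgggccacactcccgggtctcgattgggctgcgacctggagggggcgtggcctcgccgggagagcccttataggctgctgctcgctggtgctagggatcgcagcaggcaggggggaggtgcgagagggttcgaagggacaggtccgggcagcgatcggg

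RefSeq gave 39 promoters for 27 of the 31 genes; Rps6kb2, Eif4ebp1, Foxo6 and Deptor had none in the table. Both strands of each window, from 250 bases before to 50 bases after the start, were searched for 4 motifs. The glucocorticoid response element was in 0 of 39 member promoters and in 0.0578% of 32851 promoters. The FOXO site GTAAACA was in 2 of 39, in Akt1 and Sesn1, and in 3.65% of all. ACGTG was in 7 of 39 and 19.6% of all, and GGGCGG in 25 of 39 (64.1%) and 35.7% of all. The letters CACGTG hold ACGTG on both strands and counted once per promoter, and a match or its absence in these windows says nothing about binding.

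The remaining inhibitors stayed within 1.5-fold. Grb10, an adaptor that dampens insulin and IGF1 receptors and is a substrate of mTOR complex 1, was highest in fibroblasts, with 208 CPM (159 to 266) in the fluconazole library and 142 CPM (108 to 183) in the vehicle library (0.55, 0.01 to 1.09). It had 131 CPM (125 to 138) in fluconazole endothelial cells and 123 CPM (117 to 130) in vehicle endothelial cells, against 2.42 and 2.97 CPM in microglia of the fluconazole and vehicle libraries. At 1500 UMIs per barcode, 17.0% of fluconazole and 15.6% of vehicle endothelial barcodes held a Grb10 UMI, against 0.38% and 0.26% of microglia; before thinning the shares were 33.9% and 30.8% of endothelial barcodes and 1.45% and 1.30% of microglia. Grb10 was below the vehicle CPM in all 4 neuronal classes. In glutamatergic neurons it had 69.6 CPM (66.1 to 73.2) in the fluconazole library and 88.5 CPM (84.5 to 92.7) in the vehicle library (-0.35, -0.45 to -0.25), and the 5 clusters lay between -0.68 and -0.18.

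Sesn1 and Sesn3 encode sestrins, which restrain mTOR complex 1 when amino acids are short and under stress. Sesn1 in endothelial cells had 160 CPM (153 to 167) in the fluconazole library and 129 CPM (123 to 136) in the vehicle library (0.31, 0.21 to 0.41), with ratios of 0.26, 0.35 and 0.35 in the 3 clusters. Sesn3 in the same class had 41.6 CPM (38.0 to 45.4) in the fluconazole library and 51.6 CPM (47.4 to 56.1) in the vehicle library (-0.31, -0.49 to -0.13). The sestrins thus stood on opposite sides in endothelial cells. In astrocytes Sesn3 had 173 CPM in the fluconazole library and 136 CPM in the vehicle library (0.35, 0.13 to 0.57). Akt1s1, which encodes PRAS40, a part of mTOR complex 1 that AKT phosphorylates, had 27.3 and 28.4 CPM in endothelial cells of the fluconazole and vehicle libraries, and its 7 ratios lay between -0.47 and 0.30.

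Blood leukocytes gave 5 of the 18 pairs, from 19 compared members. There 8.53% of all genes were at least 1.5-fold higher and 9.79% lower, the largest shares of any class. Pik3r1 had 348 CPM in the fluconazole library and 229 CPM in the vehicle library (0.60, 0.32 to 0.89), Akt1 73.0 and 42.0 CPM (0.80, 0.14 to 1.45) and Foxo3 124 and 82.2 CPM (0.59, 0.10 to 1.07). Akt2 had 28.1 CPM in the fluconazole library and 47.8 CPM in the vehicle library (-0.77, -1.71 to 0.09), and Mtor 20.6 and 39.2 CPM (-0.93, -2.04 to 0.06). With barcodes thinned to 1500 UMIs the ratios of Akt2 (-0.37), Mtor (-0.52) and Foxo3 (0.46) were short of 1.5-fold, and under the stricter filter, which left 7 fluconazole and 21 vehicle barcodes, the Pik3r1 ratio was -0.58. Beside these, 9 of 10 microglial markers were higher in fluconazole barcodes of this class, at a sum of 3025 CPM in the fluconazole library and 2348 CPM in the vehicle library, and red blood cell genes summed to 1331 and 177 CPM. Given the unlike markers of the class in the 2 libraries, a difference in gene level and a difference in the kinds of leukocyte cannot be told apart.

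Of 57 other listed genes of the pathway, 512 pairs of gene and class could be compared. Of these 11 (2.15%) were at least 1.5-fold higher and 17 (3.32%) lower in the fluconazole library, against 3.14% and 4.58% over all genes. Sgk1 in oligodendrocytes gave the largest ratio. Inpp5d encodes SHIP1, a phosphatase of PIP3 typical of immune cells, and was lower in 4 classes and higher in 1. In GABAergic neurons it had 26.9 CPM in the fluconazole library and 57.4 CPM in the vehicle library (-1.09, -1.54 to -0.66), and the 10 microglial markers summed to 592 and 1187 CPM there, 10 of 10 lower and none at 0. In mural cells it had 16.0 and 37.8 CPM in the fluconazole and vehicle libraries (-1.23, -1.94 to -0.56), where 9 of 10 microglial markers were also lower. The part of these markers was not tested. In oligodendrocytes it had 15.6 CPM in the fluconazole library and 8.89 CPM in the vehicle library (0.82, 0.24 to 1.41). Grb14, an inhibitor of the insulin receptor, had 12.9 CPM in fluconazole astrocytes and 33.5 CPM in vehicle astrocytes (-1.38, -2.04 to -0.74). Nprl3, a subunit of the GATOR1 brake on mTOR complex 1, had 39.3 CPM in fluconazole mural cells and 20.3 CPM in vehicle mural cells (0.95, 0.31 to 1.63). Ddit4l, which encodes REDD2, a relative of REDD1, had 10.1 CPM in fluconazole endothelial cells and 16.2 CPM in vehicle endothelial cells (-0.68, -1.03 to -0.34), the opposite side from Ddit4 there.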

How the data were processed

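The 2 droplet libraries (10x Genomics 3′ v3.1) comprise 1 for each treatment. The deposited files hold UMI counts per gene and barcode, made with Cell Ranger, for which the matrix header, per the file headers, gives version 8.0.1 and the submitters' processing notes give 9.0.0; the notes also name Seurat 4.0.0, R 4.0.3 and build mm10. Whether the counting used strand is not given in the sources used here. The deposited counts comprised 12637 fluconazole and 14924 vehicle barcodes. Filtering required 500 or more genes and no more than 5% mitochondrial UMIs per barcode, and doublets called by Scrublet (expected 8%; 517 fluconazole and 617 vehicle barcodes) were left out. Both libraries were clustered together with scanpy 1.11.5 without batch correction (10000 UMIs per barcode, log scale, 2000 variable genes per library, 30 principal components, 15 neighbours, Leiden resolution 1). Clusters were named by markers, 820 fluconazole and 861 vehicle barcodes stayed unnamed, and a class was used where both libraries held 50 or more of its barcodes.

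Raw counts were summed by class and library and scaled to CPM. CPM intervals are exact Poisson and ratio intervals exact conditional binomial intervals at 95%; shares of barcodes have exact Clopper-Pearson intervals. No count model was run, since each treatment has 1 library. The members and gene lists were chosen with earlier results of these data known. Full values are given for genes past 1.5-fold in a class, the gene of each role with the widest CPM range, and genes at least 2-fold above the next class in both libraries; other genes are given by range. Of the 31 genes, 11 overlap a measured gene on the opposite strand, 6 of them a coding gene (GENCODE vM21). Promoters came from RefSeq, build GRCm38.p6, leaving out chromosome 18.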

Additional observations from a re-analysis of the deposited data

Results flagged for a closer look

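The ratio of fluconazole to vehicle CPM had opposite signs in 2 classes, past 1.5-fold in both, for 3 genes. Each class had 1 library per treatment, so none of these differences was tested. The Ddit4 ratios in microglia and astrocytes were 0.60 and -0.72, a difference of 1.32. The Deptor ratios in striatal spiny neurons and oligodendrocytes were 0.87 and -1.06, a difference of 1.94, of which the oligodendrocyte value turned to 0.17 with barcodes thinned to 1500 UMIs. The Rps6kb2 ratios in mural cells and neuroblasts were 0.63 and -0.87, a difference of 1.495, from 39 fluconazole and 20 vehicle UMIs in mural cells and 16 and 56 in neuroblasts.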

How the results depend on the processing

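With 1 library per treatment, no replicate could be left out. No paired analysis was possible because each treatment has a single library. The 10 higher and 8 lower pairs became 39 and 26 at a lower fold threshold, 19 and 16 at a minimum of 20 UMIs, and 2 and 2 at a minimum of 200 UMIs, which by construction admit more or fewer pairs. Lower pairs numbered 15 after a rough correction for free RNA (the cause was not tested) and 2 under the stricter filter, which left few barcodes in several classes. For these settings the number of pairs compared and the share over all genes are not given. These counts therefore do not show how the members stood against the background there, which was not tested. Of the 18 pairs, 17 kept their direction and 9 stayed past 1.5-fold with barcodes thinned to 1500 UMIs. All 18 kept their direction at Leiden resolution 0.5, with doublets kept, with median-of-ratios scaling, after free RNA correction, as unweighted means over clusters, without shared barcodes and without the top barcode, with 15 to 18 still past 1.5-fold. Deptor in oligodendrocytes reversed to 0.17 when thinned, and Pik3r1 in blood leukocytes to -0.58 under the stricter filter; the cause was not tested. Foxo6 in glutamatergic neurons (10 alternatives) and Pik3r3 in mural cells (9) stayed past 1.5-fold under each alternative run. The same held, with 10 alternatives each, for Foxo6 in neuroblasts, Deptor in striatal spiny neurons, Ddit4 in microglia and Akt1 in blood leukocytes. The minimum of 20 UMIs, one of these alternatives, does not alter a ratio. Neuroblasts, striatal spiny neurons, blood leukocytes and oligodendrocytes were each a single cluster, so the unweighted mean over clusters could not alter their ratios. At Leiden resolution 0.5 the neuroblast and oligodendrocyte clusters held the same numbers of barcodes as before. For these classes such alternatives do not count as checks. The summed level of the 31 genes moved to 0.076 (thinned) and 0.055 (median-of-ratios) in glutamatergic neurons, to -0.0017 (thinned) in microglia, and to 0.050 (thinned) and 0.29 (stricter filter, 27 fluconazole and 35 vehicle barcodes) in endothelial cells. The alternatives without shared barcodes and without blood leukocytes were chosen after seeing the data. Free RNA, estimated at 6.14% to 28.0% of a class's UMIs, and depth limit values of low genes.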
